A study of Mus musculus with 12 samples.

Results

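The collagen chains of the mouse kidney, taken as every gene whose symbol reads Col, a type number, a and a chain number, were followed through 5 days of ureteral obstruction. The deposited table holds 44 such genes among 55471 gene identifiers: 11 fibrillar chains, 6 basement membrane chains, 9 FACIT chains (fibril-associated collagens with interrupted triple helices) and 18 others. RNA of left kidneys had been sequenced in 12 libraries to ask which genes change in Sprr2f knockout mice after unilateral ureteral obstruction (UUO), in which clamping the left ureter stops urine flow from that kidney. Sprr2f encodes a small proline-rich protein. The 4 groups were Sprr2f knockout on day 5 of obstruction (3 libraries), Sprr2f knockout on day 0 (4), wild type on day 5 (3) and wild type on day 0 (2), and all mice carried the C57/BL6 background. The protocol gives an age of 8 to 12 weeks and names Sprr2f knockout mice alone, so the age and surgery of the wild type mice are taken from the sample labels only as far as these go. Whether the knockout is global, how the allele was made, and whether day 0 kidneys had any surgery are not given in the sources used here. Frozen whole kidney tissue was used, so a transcript level reflects both how many cells of a type were present and how much RNA each held, and these cannot be told apart.

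Collagens are trimers of chains that wind into a triple helix. Fibrillar types such as I, III and V form the tension-bearing fibrils that accumulate in scar tissue, and their main makers in kidney are fibroblasts and pericytes. Type IV chains build the basement membrane network instead: α1 and α2 chains occur in almost every basement membrane, whereas α3, α4 and α5 chains form the mature glomerular and some tubular basement membranes, and defects in them cause Alport syndrome in humans. FACIT chains sit on the surface of fibrils. The other types include beaded filaments (type VI), short-chain networks (VIII, X), anchoring fibrils (VII), multiplexins (XV, XVIII) and membrane-spanning chains (XIII, XVII, XXIII, XXV).

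The 6 type IV genes lie in 3 head-to-head pairs, which is how 2 of the promoter windows below came to be shown: each holds the starts of a pair of genes read in opposite directions. In GENCODE M21 on GRCm38.p6, Col4a1 starts at base 11312826 of chromosome 8 on the minus strand and Col4a2 at base 11312805 on the plus strand, so their first exons overlap. Col4a4 starts at base 82586849 of chromosome 1 on the minus strand and Col4a3 at base 82586921 on the plus strand, 72 bases away. Col4a6 (minus strand, start 141474076) and Col4a5 (plus strand, start 141475385) on chromosome X are 1309 bases apart. The RefSeq windows run from 250 bases before to 50 bases after the named gene's start, which is base 251 of the window. The first is chr8:11312555-11312854 on the plus strand, where Col4a1 starts at base 272 in the other direction, and the second is chr1:82586800-82587099 on the minus strand, where Col4a3 starts at base 179 in the other direction. The searched motifs were the TATA box with letters TATAAA, the CCAAT box, the GC box with letters GGGCGG and the AP-1 motif with letters TGANTCA, each on either strand, and capitals mark their matches. N stands for any base, and CCGCCC is GGGCGG read on the other strand.
Col4a2 and Col4a1 window: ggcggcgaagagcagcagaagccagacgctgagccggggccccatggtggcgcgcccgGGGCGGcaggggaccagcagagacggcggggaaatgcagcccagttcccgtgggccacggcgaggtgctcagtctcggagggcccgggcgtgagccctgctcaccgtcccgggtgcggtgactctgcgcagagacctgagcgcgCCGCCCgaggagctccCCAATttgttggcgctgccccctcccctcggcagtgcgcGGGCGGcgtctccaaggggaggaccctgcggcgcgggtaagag
Col4a4 and Col4a3 window: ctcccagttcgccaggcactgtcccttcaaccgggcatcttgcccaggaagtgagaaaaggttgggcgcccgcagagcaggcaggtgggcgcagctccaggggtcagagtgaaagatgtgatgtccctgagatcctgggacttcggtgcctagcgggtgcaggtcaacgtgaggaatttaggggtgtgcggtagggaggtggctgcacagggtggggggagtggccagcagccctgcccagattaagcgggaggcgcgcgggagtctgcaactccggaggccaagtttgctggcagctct
The window shared by Col4a1 and Col4a2 had 4 matches that do not overlap each other, 3 to the GC box GGGCGG and 1 to the CCAAT box, and the window shared by Col4a3 and Col4a4 had 0. RefSeq promoter windows of the same 300 bases were found for 35 of the 44 collagen genes. GGGCGG was present in 22 of them (62.86%), against 35.91% of 27025 promoters of all genes, and the median GC content of the windows was 60.0% for collagen genes and 52.67% for all. CCAAT was in 34.29% of collagen promoters against 37.92% of all, TATAAA in 14.29% against 14.16%, and the AP-1 motif TGANTCA in 2.86%, the promoter of Col6a1, against 7.93%. These are letter matches and do not show that a factor binds.

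The libraries held 16567256 to 19398882 reads in genes. Sprr2f, the gene targeted in the knockout, had 0, 39 and 76 reads in the knockout day 5 libraries and 482, 447 and 1138 in wild type on day 5, and at most 5 in each day 0 library of either genotype, so day 0 does not check the genotype labels. Mitochondrial transcripts took 3.89% to 4.34% of reads on day 5 and 8.31% to 9.26% on day 0, and TMM scaling factors were 1.13 to 1.19 on day 5 and 0.795 to 0.897 on day 0. The series title speaks of female mice, but 7 of the 12 libraries carried transcripts of 4 Y-linked genes (112 to 170 CPM, against 0.281 to 0.979 CPM in the other 5, which carried Xist). These 7 were 1 of 3 knockout day 5, all 4 knockout day 0, 1 of 3 wild type day 5 and 1 of 2 wild type day 0 libraries. Levels below are scaled CPM, the deposited CPM values divided by the TMM factor. Differences are log2 fold changes ± SE from limma on log2(scaled CPM + 0.5), a scale that understates changes of low genes, with Benjamini-Hochberg adjustment over 18093 tested genes. The labels do not say how replicates relate to each other. A group with both Y-linked and Xist libraries holds more than 1 mouse, but for knockout day 0 this is not known. The p-values therefore rest on a spread that may be partly technical. Of the 44 collagen genes, 42 passed the filter on low values. Col9a1 and Col22a1 did not, with at most 6 reads in any library. Another 7 (Col2a1, Col9a2, Col9a3, Col10a1, Col11a1, Col17a1 and Col28a1) had under 10 reads in every day 0 library, and Col19a1 had under 10 in every day 5 library. These passed through the group where they were high. The counts of calls that follow are therefore descriptions, and so are the adjusted p and the separation of days of these chains.

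Obstructed kidneys devoted a larger part of their transcripts to collagens, and a different mix of them. Collagen genes took 0.79% ± 0.0491 of reads on day 5 and 0.203% ± 0.0167 on day 0 in knockout kidneys (SD, n = 3 and 4), and 0.827% ± 0.12 on day 5 and 0.23% ± 0.0301 on day 0 in wild type (SD, n = 3 and 2). Within that total, fibrillar chains made up 45.3% ± 10.5 on day 5 against 19.8% ± 1.65 on day 0 in knockout, and 45.8% ± 5.92 against 20.7% ± 0.116 in wild type. Basement membrane chains made up 30.5% ± 7.34 against 59.3% ± 2.76 in knockout, and 30.9% ± 4.35 against 59.3% ± 0.397 in wild type. Day 5 and day 0 libraries did not overlap in either share. The FACIT chains held 3.78% ± 0.650 on day 5 against 3.48% ± 0.463 on day 0 in knockout and 3.64% ± 0.361 against 3.04% ± 0.116 in wild type, and the remaining chains 20.5% ± 2.89 against 17.4% ± 1.07 and 19.6% ± 1.22 against 17.0% ± 0.397. The exact two-sided permutation test over libraries was taken as double the p of a single direction. So defined, it cannot give a p below 0.0571 for 3 against 4 or below 0.2 for 3 against 2. The fibrillar and basement membrane shares stood at these limits (adjusted p = 0.366 in knockout and 0.413 in wild type over 64 such tests).

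**Figure D1:**
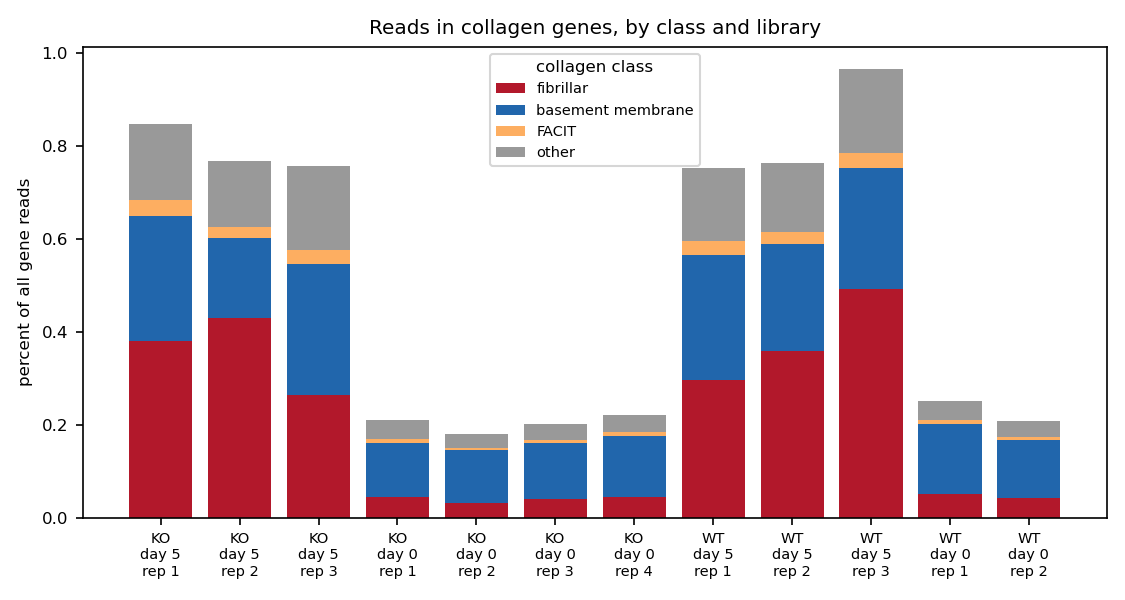
Percent of all gene reads that fell in collagen genes, stacked by collagen class, with a bar for each of the 12 libraries (KO, Sprr2f knockout, WT, wild type, rep, replicate). Day 5 bars reach 0.753% to 0.964% and day 0 bars 0.181% to 0.251%, and the fibrillar part grows most.

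Per kilobase of transcript, the order of the chains also differed between days. In knockout kidneys on day 5 the highest mean levels were those of Col3a1 (184 ± 32.4 scaled CPM per kb, SD, n = 3), Col1a2 (169 ± 37.9), Col4a1 (154 ± 31.7), Col1a1 (142 ± 59.3), Col18a1 (126 ± 12.8) and Col4a2 (102 ± 24.7), and neighbours in that order differed by less than the larger of their SDs. On day 0 the same kidneys were led by Col4a1 (54.1 ± 4.46 scaled CPM per kb, SD, n = 4), followed by Col18a1 (41.2 ± 3.73), Col4a4 (40.7 ± 2.67), Col4a2 (40.6 ± 2.75) and Col4a3 (38.6 ± 5.27), the last 4 within the larger of their SDs, with Col1a2 (21.6 ± 4.04) and Col3a1 (20.1 ± 5.26) below. Wild type gave the same order of the first 6 on day 5, from Col3a1 (179.8 ± 31.7 scaled CPM per kb, n = 3) to Col4a2 (107 ± 15.4). Its day 0 libraries began with Col4a1 (63.7 ± 18.8, n = 2), Col4a2 (45.5 ± 14.5), Col18a1 (43.1 ± 0.824), Col4a3 (41.4 ± 3.05) and Col4a4 (38.9 ± 4.44). The lowest levels belonged to Col9a1, Col22a1, Col19a1 and Col2a1 on day 5 in wild type, with Col2a1 at 0.0694 ± 0.0971 scaled CPM per kb.

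After 5 days of obstruction, 28 of the 42 tested collagen genes were higher and 5 lower than on day 0 in knockout kidneys, and 9 were not called. In wild type kidneys 25 were higher, 5 lower and 12 not called. Among all tested genes, 29.4% were called higher and 25.4% lower in knockout (54.8% in all), and 24.5% and 22.6% in wild type (47.1% in all). The median log2 change of the tested collagen genes was 1.29 in knockout, where that of all genes was 0.07, and 1.13 in wild type, where that of all genes was 0.04. In both genotypes 23 chains rose and 3 (Col27a1, Col4a3 and Col4a4) fell. The day 5 libraries lay entirely above the day 0 libraries for 28 genes and entirely below for 5 in knockout (29.5% and 25.6% of all genes), and for 26 and 5 in wild type (34.4% and 30.7% of all genes). Among the Y-linked libraries alone, day 5 and day 0 had 1 and 4 libraries in knockout and 1 and 1 in wild type. Each lone library is there assumed to vary like the 4 of knockout day 0. The Xist libraries alone were 2 on day 5 and 1 on day 0 in wild type, and no knockout day 0 library carried Xist. Calls and their counts are not given for these comparisons, because each leaves 1 library in a group. Scaling by library size alone put the median log2 change of all genes at 0.45 in knockout and 0.40 in wild type and gave 31 higher and 4 lower in knockout and 26 and 2 in wild type. Of all 18093 genes it called 10114 higher and 2179 lower in knockout and 8560 and 2001 in wild type. That moved the share of higher among all calls to 82.3% from the 53.7% of TMM scaling in knockout, and to 81.1% from 52.1% in wild type.

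**Figure D2:**
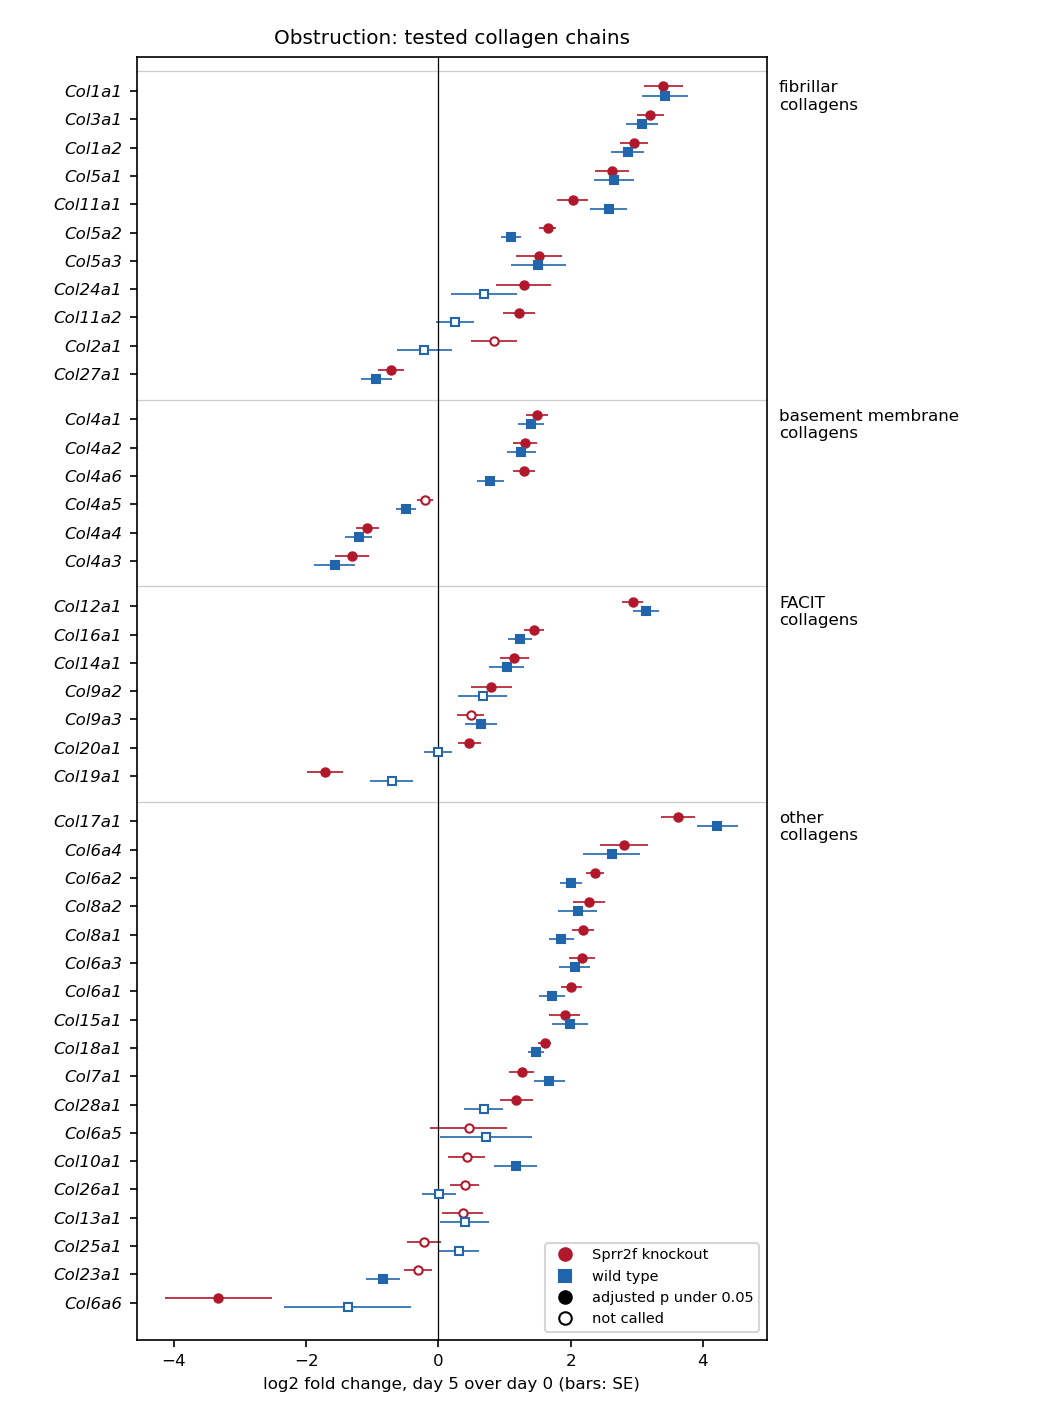
Log2 fold change, day 5 over day 0, of the 42 tested collagen chains by class, in Sprr2f knockout (circles) and wild type (squares), with SE bars from limma. Filled symbols have an adjusted p under 0.05. Most chains lie to the right of 0, and Col4a3, Col4a4 and Col27a1 lie to the left with filled symbols in both genotypes.

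Among the fibrillar collagens, the chains of types I and III rose in both genotypes. Col1a1 stood at 815, 1210.1 and 508 scaled CPM in the knockout day 5 libraries and at 100.3, 55.7, 69.4 and 81.6 in the knockout day 0 libraries. In wild type kidneys the level of Col1a1 was 618, 853 and 1301 on day 5 and 91 and 73.2 on day 0. The day 5 libraries were all above the day 0 libraries in both genotypes, and Col1a1, the α1 chain of type I collagen and the bulk of scar fibrils, rose by 3.40 ± 0.29 (adjusted p = 1.02e-06) log2 units in knockout and 3.43 ± 0.35 (adjusted p = 6.23e-06) in wild type. Its partner Col1a2, which supplies the α2 chain of the type I trimer, averaged 906 ± 203 scaled CPM on day 5 and 116 ± 21.6 on day 0 in knockout (SD, n = 3 and 4), and rose by 2.96 ± 0.21 (adjusted p = 2.05e-07). In wild type Col1a2 averaged 945 ± 261 on day 5 and 128 ± 29.6 on day 0 (SD, n = 3 and 2), a rise of 2.87 ± 0.25 (adjusted p = 1.72e-06). Col3a1, the homotrimer chain of thin reticular fibrils, stood at 1092, 1157 and 818 scaled CPM in the knockout day 5 libraries and at 149.7, 82.4, 96.9 and 119 in the knockout day 0 libraries. Wild type values were 834, 981 and 1186 on day 5 and 136 and 101 on day 0. Again no day 5 library overlapped a day 0 library, and the rise was 3.21 ± 0.20 (adjusted p = 8.97e-08) in knockout and 3.08 ± 0.24 (adjusted p = 6.91e-07) in wild type. For Col1a1, Col1a2 and Col3a1 the Y-linked library was the highest of each day 5 group. With the Y-linked or Xist pattern as a covariate the rise of Col1a1 was 3.88 in knockout and 3.55 in wild type. That of Col1a2 was 3.29 and 2.95, and that of Col3a1 3.45 and 3.14.

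Type V chains, which start and thin type I fibrils, rose less evenly. Col5a1 averaged 133 ± 12.8 scaled CPM on day 5 and 21.7 ± 6.18 on day 0 in knockout and 140.0 ± 43.8 and 22 ± 8.32 in wild type, with rises of 2.63 ± 0.25 (adjusted p = 2.52e-06) and 2.65 ± 0.30 (adjusted p = 1.47e-05) log2 units. Col5a2 stood at 114, 107 and 81.2 scaled CPM in the knockout day 5 libraries and at 33.1, 29, 31.6 and 31.7 in the knockout day 0 libraries. Among wild type libraries, day 5 gave 98, 96 and 129 and day 0 gave 53.6 and 46.1. Day 5 lay above day 0 in each genotype, and the rise of Col5a2 was 1.65 ± 0.13 (adjusted p = 3.94e-07) in knockout and 1.09 ± 0.15 (adjusted p = 7.67e-05) in wild type, with the 4 knockout day 0 libraries all below the 2 of wild type. Per kilobase, the ratio of Col5a1 to Col5a2 was 1.05 ± 0.122 on day 5 and 0.541 ± 0.129 on day 0 in knockout, and 1.01 ± 0.155 and 0.343 ± 0.095 in wild type. Col5a3, the third chain of type V, rose by 1.52 ± 0.35 (adjusted p = 0.00247) in knockout and 1.51 ± 0.41 (adjusted p = 0.0094) in wild type, where it was no longer called without replicate 2 of wild type day 0 (adjusted p = 0.0619). The Y-linked libraries were the highest of their day 5 groups, at 61.1 scaled CPM against 19.8 and 20.4 in knockout and 42.7 against 21.8 and 28.4 in wild type (1 library against 2 in each). With the Y-linked or Xist pattern as a covariate the rise of Col5a3 was 2.13 (adjusted p = 1.42e-05) in knockout and 1.66 (adjusted p = 0.000141) in wild type.

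Both type XI chains, best known as nucleators of cartilage fibrils, were called higher in knockout, and Col11a1 also in wild type. Col11a1 rose by 2.03 ± 0.24 (adjusted p = 1.31e-05) in knockout and 2.57 ± 0.28 (adjusted p = 1.1e-05) in wild type, on 181 day 5 reads and 19 day 0 reads over all knockout libraries and 282 and 10 in wild type. Relative to total reads the ratio of day 5 to day 0 reads was 12.4 (95% interval 7.72 to 21.1) in knockout and 19.6 (95% interval 10.5 to 41.3) in wild type, counting error only. Col11a2 stood at 2.34, 2.71 and 3.58 scaled CPM on day 5 and 0.494, 0.759, 1.1 and 1.61 on day 0 in knockout, and at 2.74, 2.57 and 1.93 and 2.0 and 1.87 in wild type. It rose by 1.22 ± 0.24 (adjusted p = 0.001) in knockout and changed by 0.25 ± 0.29 (adjusted p = 0.52) in wild type, and the difference between these changes did not pass the test (0.97 ± 0.38, adjusted p = 0.624). Restricted to the Y-linked libraries, with 1 on day 5, the knockout value was 1.15. Col2a1, the main fibril of cartilage, was near its floor with 37 and 5 reads on day 5 and day 0 in knockout and 24 and 13 in wild type, and was not called, at 0.84 ± 0.35 (adjusted p = 0.0592) and -0.21 ± 0.42 (adjusted p = 0.708). Without replicate 2 or 3 of wild type day 5 or replicate 1 of knockout day 5 the knockout value was called, at 0.83 (adjusted p = 0.0468), 0.83 (adjusted p = 0.0213) and 1.18 (adjusted p = 0.0159). The knockout value of Col2a1 was also called with the Y-linked or Xist pattern as a covariate, at 1.22 (adjusted p = 0.0137), and with library size alone, at 0.96 (adjusted p = 0.0352). Over the Y-linked libraries alone, where day 5 held 1 library, that value was 1.01. The summed level of 6 cartilage markers was likewise low in every group, 2.22 to 3.26 scaled CPM on day 5 and 0.972 to 2.84 on day 0 in knockout and 2.06 to 3.02 and 1.39 to 3.14 in wild type. Col24a1, a fibrillar chain with breaks in its helix, was called higher in knockout, at 1.29 ± 0.42 (adjusted p = 0.0199), and gave 0.68 ± 0.50 (adjusted p = 0.288) in wild type. Its days overlapped in both genotypes, in knockout at 1.63 to 5.07 scaled CPM on day 5 and 0.456 to 2.02 on day 0. Leaving out replicate 1 or 2 of knockout day 5 or replicate 2 of knockout day 0 ended the knockout call (adjusted p = 0.0914, 0.0655 and 0.0648), as did testing with no filter (adjusted p = 0.0545).

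Col27a1, a fibrillar chain of cartilage and developing epithelia, was the fibrillar chain that fell. Col27a1 stood at 66.1, 59.8 and 65.1 scaled CPM in the knockout day 5 libraries and at 67.6, 117, 149 and 104 in the knockout day 0 libraries. The wild type libraries held 69.2, 57.2 and 65.9 on day 5 and 119.7 and 126 on day 0. Within each genotype every day 5 library lay below every day 0 library, although replicate 1 of knockout day 0 came close to the day 5 range. The fall was -0.72 ± 0.19 (adjusted p = 0.00666) log2 units in knockout and -0.94 ± 0.23 (adjusted p = 0.00463) in wild type. With scaling by library size alone the values stayed below 0 but were not called, at -0.27 (adjusted p = 0.222) and -0.52 (adjusted p = 0.068). For the Y-linked libraries alone, with 1 on day 5 in each genotype, they were -0.80 and -0.86.

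The basement membrane chains split by pair. Col4a1 stood at 1077, 787 and 1194 scaled CPM in the knockout day 5 libraries and at 385, 323, 344 and 380.1 in the knockout day 0 libraries. In wild type kidneys the level of Col4a1 was 1151, 944 and 1185 on day 5 and 509 and 334 on day 0. Day 5 was above day 0 throughout, and Col4a1 rose by 1.49 ± 0.17 (adjusted p = 8.39e-06) log2 units in knockout and 1.40 ± 0.20 (adjusted p = 8.26e-05) in wild type. Col4a2, its head-to-head neighbour and partner in the α1α1α2 trimer, rose by 1.30 ± 0.18 (adjusted p = 5.59e-05) in knockout, with means of 659 ± 159.6 scaled CPM on day 5 and 262 ± 17.7 on day 0 (SD, n = 3 and 4). In wild type Col4a2 averaged 687 ± 99.3 on day 5 and 294 ± 93.8 on day 0 (SD, n = 3 and 2) and rose by 1.25 ± 0.22 (adjusted p = 0.000399). The ratio of Col4a1 to Col4a2 per kilobase was 1.52 ± 0.0627 on day 5 and 1.33 ± 0.0594 on day 0 in knockout and 1.56 ± 0.0831 and 1.41 ± 0.0365 in wild type.

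The α3 and α4 chains went the other way. Col4a3 stood at 195, 74.2 and 158 scaled CPM in the knockout day 5 libraries and at 264, 357, 344 and 357 in the knockout day 0 libraries. Wild type values were 118, 143 and 99.3 on day 5 and 335 and 372 on day 0. Every day 5 library was below every day 0 library, and Col4a3 fell with a log2 change of -1.31 ± 0.26 (adjusted p = 0.000839) in knockout and -1.57 ± 0.31 (adjusted p = 0.00103) in wild type. Col4a4 stood at 259, 132 and 215 scaled CPM in the knockout day 5 libraries and at 378, 438, 401 and 428 in the knockout day 0 libraries. Among wild type libraries, day 5 gave 168, 186 and 156 and day 0 gave 425 and 362. Here too the groups were apart, and Col4a4 changed by -1.07 ± 0.17 (adjusted p = 0.000207) in knockout and -1.21 ± 0.21 (adjusted p = 0.000416) in wild type. Both falls were also called with library size alone, at -0.86 (adjusted p = 0.0117) and -1.15 (adjusted p = 0.0078) for Col4a3 and -0.62 (adjusted p = 0.0084) and -0.79 (adjusted p = 0.00756) for Col4a4. In knockout the Y-linked day 5 library was the lowest for both genes, and in wild type it was also the lowest. An antisense gene, C430014B12Rik, covers 5.65% of the Col4a3 exons, and the strand setting of the counting is not given in the sources used here.

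Col4a5, the X-linked chain that completes the α3α4α5 trimer, had smaller log2 changes than its partners. Col4a5 stood at 61.5, 43 and 55.9 scaled CPM in the knockout day 5 libraries and at 56.6, 54.9, 69.6 and 64 in the knockout day 0 libraries. The wild type libraries held 48, 57.6 and 50.3 on day 5 and 76.2 and 69.7 on day 0. The knockout libraries of the 2 days overlapped and gave -0.20 ± 0.12 (adjusted p = 0.18), whereas in wild type day 5 was below day 0 and Col4a5 fell, at -0.49 ± 0.15 (adjusted p = 0.0158). The wild type call was lost with library size alone (-0.07, adjusted p = 0.739), where the knockout value was 0.24 (adjusted p = 0.132), above 0. It was also lost without replicate 1 of wild type day 5 (adjusted p = 0.0538), and without replicate 1 of wild type day 0, which leaves 1 library there. With the Xist libraries alone, 1 of them on day 0, the wild type value was -0.39. With the Y-linked libraries alone, which compares 1 day 5 library with 4, the knockout value of Col4a5 was -0.49. Col4a6, its head-to-head neighbour, whose chain joins α5 in the basement membranes of some ducts and of smooth muscle, rose in both genotypes, by 1.29 ± 0.17 (adjusted p = 4.22e-05) and 0.79 ± 0.21 (adjusted p = 0.00721). The wild type rise of Col4a6 was not called without replicate 1 of wild type day 0, which leaves 1 library there. With the Xist libraries alone, 1 of them on day 0, that rise was 0.67. Of the 3 pairs, 2 therefore had both members moving in the same direction in knockout and in wild type, and the Col4a5 and Col4a6 pair did not.

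Relative levels within type IV show the same shift. Per kilobase, Col4a3 amounted to 0.105 ± 0.0335 of Col4a1 on day 5 and 0.721 ± 0.138 on day 0 in knockout (SD, n = 3 and 4), and to 0.0871 ± 0.0273 and 0.686 ± 0.25 in wild type (SD, n = 3 and 2). Col4a5 amounted to 0.424 ± 0.0701 of Col4a4 on day 5 and 0.231 ± 0.0304 on day 0 in knockout, and 0.473 ± 0.0282 and 0.288 ± 0.0147 in wild type. The Col4a3 to Col4a4 ratio overlapped between days in knockout, at 0.806 ± 0.125 and 0.947 ± 0.0847. These ratios are independent of the scaling between libraries. The summed level of 8 podocyte markers was 299 to 442 scaled CPM on day 5 and 392 to 404 on day 0 in knockout and 346 to 471 and 431 to 625 in wild type. None of them was at 0, with 2 called higher, 1 lower and 5 not called in each genotype. Podocytes are the source of α3α4α5 chains in glomeruli, and distal tubule and collecting duct cells make them too. A set of 6 distal tubule and collecting duct markers summed to 1727 to 4002 on day 5 and 5179 to 6293 on day 0 in knockout and 2416 to 3255 and 6091 to 8251 in wild type, with 4 and 3 of the 6 lower and 0 higher. Among all tested genes, 29.4% were called higher and 25.4% lower in knockout, and 24.5% and 22.6% in wild type. The 2 of 8 podocyte markers called higher are near these shares. The part of podocytes and of distal tubule and collecting duct cells in the falls was not tested.

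**Figure D3:**
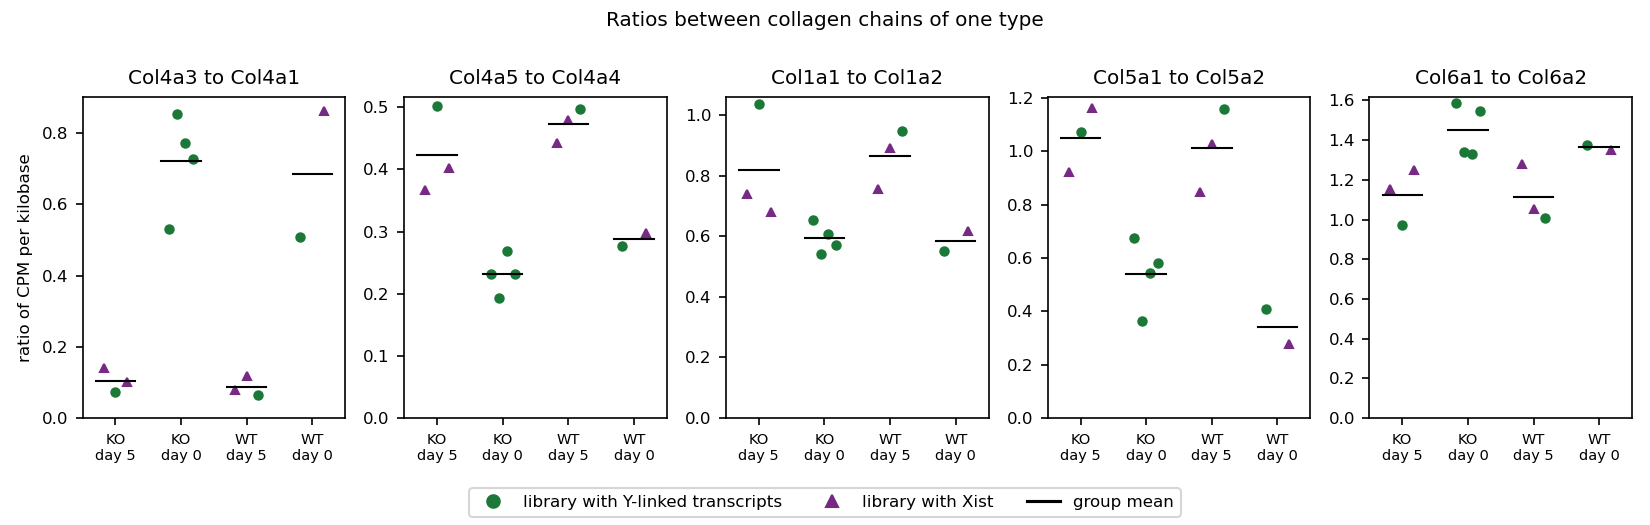
Ratios of CPM per kilobase between chains of the same collagen type in each library, by group (KO, Sprr2f knockout, WT, wild type), with the group mean as a line and the marker showing Y-linked or Xist transcripts. Col4a3 to Col4a1 lies at 0.0648 to 0.140 on day 5 and 0.509 to 0.863 on day 0, while Col5a1 to Col5a2 and Col1a1 to Col1a2 are higher on day 5.

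Of the 9 FACIT genes, 7 were tested, and in knockout 5 rose and 1 fell, against 4 and 0 in wild type. Col12a1 stood at 122, 71 and 83 scaled CPM in the knockout day 5 libraries and at 12.3, 9.26, 11.9 and 11.9 in the knockout day 0 libraries. In wild type kidneys the level of Col12a1 was 111, 101 and 127 on day 5 and 13.3 and 11.3 on day 0. Col12a1, which coats type I fibrils in tissues under tension, rose by 2.94 ± 0.16 (adjusted p = 5.16e-08) log2 units in knockout and 3.14 ± 0.20 (adjusted p = 1.8e-07) in wild type, with no overlap between days. Col14a1, a related fibril-coating chain, averaged 101 ± 25.9 scaled CPM on day 5 and 45.6 ± 12.4 on day 0 in knockout and 78.6 ± 10.2 and 38.6 ± 9.71 in wild type, and rose by 1.15 ± 0.22 (adjusted p = 0.000704) and 1.03 ± 0.26 (adjusted p = 0.00577). With the Y-linked libraries alone, 1 on day 5 in each genotype, its rise was 0.73 in knockout and 0.76 in wild type. The wild type rise was not called without replicate 2 of day 0, which leaves 1 library there. Col16a1 rose by 1.44 ± 0.15 (adjusted p = 4.95e-06) and 1.24 ± 0.18 (adjusted p = 0.000106).

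The chains of type IX, which decorate cartilage fibrils, were at the edge of detection. Col9a2 had 29 reads on day 5 and 3 on day 0 over all knockout libraries and 40 and 4 in wild type, a ratio relative to total reads of 12.6 (95% interval 3.9 to 64.6) and 6.94 (95% interval 2.51 to 26.7), where the intervals cover counting error only. Of the wild type day 5 reads, 30 came from the Y-linked library, against 1 and 9 in the others. Col9a2 overlapped between days in wild type but not in knockout. It was called in knockout at 0.80 ± 0.31 (adjusted p = 0.0432), a call that 11 of 18 alternatives lost, 9 of them by leaving out 1 library (adjusted p over all alternatives 0.0102 to 0.0913). In wild type it was not called, at 0.67 ± 0.37 (adjusted p = 0.158), but was without replicate 1 of wild type day 5, at 1.08 (adjusted p = 0.0104). Col9a3 had 44 and 23 reads in knockout and 57 and 13 in wild type, and was called in wild type at 0.64 ± 0.25 (adjusted p = 0.0477), a call that 18 of 22 alternatives lost (adjusted p over all alternatives 0.00725 to 0.178). Tcfl5 overlaps 6.07% of the Col9a3 exons on the other strand. Col9a1 had 5 reads on day 5 and 10 on day 0 in knockout and 5 and 3 in wild type, and Col22a1, a chain of tissue junctions in muscle, 11 and 1 in knockout and 13 and 1 in wild type. Col20a1 stood at 3.76 to 4.73 scaled CPM on day 5 and 2.4 to 3.34 on day 0 in knockout and gave 0.47 ± 0.18 (adjusted p = 0.0397), a call that 10 of 22 alternatives lost (adjusted p over all alternatives 0.000841 to 0.129). In wild type it gave -0.00 ± 0.21 (adjusted p = 0.992).

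Col19a1, a basement membrane zone chain that skeletal muscle and neurons make, was the FACIT chain that was lower after obstruction. Col19a1 stood at 0, 0.296 and 0.0464 scaled CPM in the knockout day 5 libraries and at 1.61, 1.37, 1.81 and 1.19 in the knockout day 0 libraries. Wild type values were 0.0473, 0 and 0.394 on day 5 and 0.908 and 0.242 on day 0. In knockout the days did not overlap and the log2 change was -1.72 ± 0.27 (adjusted p = 0.00018), with 7 reads on day 5 and 92 on day 0. In wild type they overlapped and the change was -0.71 ± 0.33 (adjusted p = 0.0949), on 10 and 19 reads. Within the day 5 groups and within wild type day 0, the Y-linked library was always the highest. With the Y-linked or Xist pattern as a covariate, Col19a1 was lower in both genotypes, at -1.22 in knockout (adjusted p = 0.000295) and -0.58 in wild type (adjusted p = 0.0351). The wild type change was also called without replicate 3 of wild type day 5, at -0.96 (adjusted p = 0.0321), and without replicate 2 of wild type day 0, at -1.18 (adjusted p = 0.0264).

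Of the 18 remaining chains, 11 rose in each genotype, while 1 fell in knockout (Col6a6) and 1 in wild type (Col23a1). On the log2(scaled CPM + 0.5) scale the largest change of the tested collagens in both genotypes was that of Col17a1, the hemidesmosome collagen that anchors basal epithelial cells. Col17a1 stood at 7.41, 13.7 and 6.73 scaled CPM in the knockout day 5 libraries and at 0.371, 0.38, 0.194 and 0.119 in the knockout day 0 libraries. Among wild type libraries, day 5 gave 10.7, 13.6 and 18.1 and day 0 gave 0.363 and 0.181. There was no overlap, and Col17a1 rose by 3.62 ± 0.26 (adjusted p = 2.13e-07) log2 units in knockout and 4.22 ± 0.31 (adjusted p = 4.93e-07) in wild type. Col17a1 passed the filter through its day 5 libraries, with at most 6 reads in any day 0 library, so these p-values and the separation are descriptions. Its reads numbered 590 on day 5 and 16 on day 0 in knockout, a ratio relative to total reads of 48 (95% interval 29.3 to 84.6). In wild type they numbered 907 and 9, a ratio of 70.0 (95% interval 36.7 to 154). Col7a1, the anchoring fibril that fastens such epithelia to the stroma, rose by 1.26 ± 0.19 (adjusted p = 0.000141) and 1.67 ± 0.23 (adjusted p = 7.34e-05). Markers of urothelium, the layered epithelium that lines the renal pelvis, moved with both. The 6 markers summed to 34.6 to 104 scaled CPM on day 5 and 9.46 to 24.2 on day 0 in knockout and 48.2 to 201 and 9.91 to 20.5 in wild type, none at 0. Of the 6, 4 and 5 were called higher, where 29.4% and 24.5% of all genes were. Their part in the result was not tested.

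Type VI collagen, the beaded filament network between cells and fibrils, rose in its α1, α2, α3 and α4 genes. Col6a1 averaged 137 ± 16.5 scaled CPM on day 5 and 34.2 ± 7.95 on day 0 in knockout and 127 ± 16.9 and 38.3 ± 4.32 in wild type, and rose by 2.01 ± 0.16 (adjusted p = 6.11e-07) and 1.71 ± 0.20 (adjusted p = 1.53e-05). Col6a2 rose by 2.37 ± 0.14 (adjusted p = 6.28e-08) and 2.01 ± 0.16 (adjusted p = 1.02e-06), and Col6a3 by 2.17 ± 0.20 (adjusted p = 1.37e-06) and 2.06 ± 0.23 (adjusted p = 1.37e-05). The ratio of Col6a1 to Col6a2 per kilobase was 1.13 ± 0.142 on day 5 and 1.45 ± 0.135 on day 0 in knockout and 1.11 ± 0.145 and 1.36 ± 0.0165 in wild type, without overlap between days. The α3-like chains Col6a4, Col6a5 and Col6a6 lie side by side on the minus strand of chromosome 9 (GRCm38.p6, 105989454 to 106096783, 105856078 to 105960643 and 105687809 to 105828160) and did not move together. Col6a4 was at 8.95, 5.47 and 13.9 scaled CPM on day 5 and 0.927, 0.531, 0.519 and 1.61 on day 0 in knockout and at 4.35, 5.64 and 8.37 and 0.968 and 0.242 in wild type, and rose by 2.81 ± 0.36 (adjusted p = 2.92e-05) and 2.62 ± 0.43 (adjusted p = 0.000278). For Col6a5 the days overlapped, at 0.279 to 3.7 and 0.389 to 1.24 in knockout and 0.614 to 4.64 and 0.968 to 1.81 in wild type, and it was not called. Over the Y-linked libraries alone, which compares 1 day 5 library with 4 in knockout and 1 with 1 in wild type, the changes of Col6a5 were 1.57 and 1.69. Col6a5 and Col6a6 share 3.42% and 3.54% of their 50-base stretches with other genes, mostly with each other, so their counts are less certain.

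Col6a6 was low in the 1 day 0 library without Y-linked transcripts. Col6a6 stood at 1.45, 1.38 and 1.11 scaled CPM in the knockout day 5 libraries and at 20.9, 11.8, 16.1 and 24.3 in the knockout day 0 libraries. The wild type libraries held 0.378, 2.17 and 2.98 on day 5 and 25.5 and 0.544 on day 0. The day 0 library of wild type that carried Xist held 0.544, and the 5 day 0 libraries with Y-linked transcripts, across both genotypes, held 11.8 to 25.5. On day 5 the level was 0.378 to 2.98 in all 6 libraries. The log2 change was -3.33 ± 0.81 (adjusted p = 0.0037) in knockout, where the days did not overlap, and -1.37 ± 0.96 (adjusted p = 0.267) in wild type, where edgeR gave -2.81 (adjusted p = 0.0256) and DESeq2 -2.84 (adjusted p = 0.0308). With the pattern as a covariate these were -2.18 (adjusted p = 0.0239) and -1.09 (adjusted p = 0.245). Without wild type day 0 replicate 2, the Xist library, the change of Col6a6 in wild type was -3.70. With the Y-linked libraries alone, 1 on each day, it was -2.89. Without replicate 1 of wild type day 0, which leaves the Xist library, the direction turned, at 0.95. The wild type direction of Col6a6 therefore rested on 1 day 0 library. In knockout, all day 0 libraries carried Y-linked transcripts and 2 of 3 day 5 libraries did not. The day and the pattern are therefore partly confounded there for every chain, Col6a6 among them.

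The short-chain type VIII genes, whose products form hexagonal lattices around vessels, rose together. Col8a1 averaged 35 ± 8.11 scaled CPM on day 5 and 7.23 ± 1.03 on day 0 in knockout and 41.4 ± 7.24 and 10.9 ± 0.16 in wild type, and rose by 2.18 ± 0.16 (adjusted p = 2.76e-07) and 1.86 ± 0.19 (adjusted p = 6.68e-06). Col8a2 rose by 2.27 ± 0.24 (adjusted p = 6.43e-06) and 2.11 ± 0.29 (adjusted p = 7.23e-05). The related Col10a1, a growth plate chain, had 20 reads on day 5 and 5 on day 0 in knockout and 56 and 3 in wild type, giving 0.43 ± 0.28 (adjusted p = 0.21) and 1.17 ± 0.33 (adjusted p = 0.0113). The wild type call was lost without replicate 1 of wild type day 0 (adjusted p = 0.0646). Both multiplexins rose. Col18a1, the precursor of endostatin, averaged 704 ± 71.5 scaled CPM on day 5 and 231 ± 20.9 on day 0 in knockout and 673 ± 59.8 and 241 ± 4.61 in wild type. That was a rise of 1.61 ± 0.10 (adjusted p = 8.12e-08) and 1.48 ± 0.12 (adjusted p = 8.55e-07) with the smallest SE of the tested chains. Col15a1, found where basement membranes meet interstitial fibrils, rose by 1.91 ± 0.23 (adjusted p = 1.79e-05) and 1.99 ± 0.28 (adjusted p = 7.21e-05).

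Of the membrane-spanning chains other than Col17a1, Col23a1 was called, in wild type, and Col13a1 and Col25a1 were not. Col23a1 stood at 2.91, 2.32 and 3.11 scaled CPM on day 5 and 3.89, 2.28, 5.06 and 3.39 on day 0 in knockout and at 2.17, 2.12 and 2.02 and 3.81 and 4.53 in wild type. It fell in wild type, at -0.84 ± 0.25 (adjusted p = 0.0155), and gave -0.31 ± 0.21 (adjusted p = 0.242) in knockout, where the days overlapped and where leaving out replicate 2 of day 0 gave -0.51 (adjusted p = 0.036). The wild type call was lost with library size alone (-0.48, adjusted p = 0.135), where the knockout value was 0.08, above 0. It was also lost without replicate 2 of wild type day 0, which leaves 1 library there. With the Y-linked libraries alone, 1 on each day, the wild type value was -0.77. Col13a1, a chain of neuromuscular junctions, gave 0.37 ± 0.31 (adjusted p = 0.338) in knockout, 0.67 (adjusted p = 0.0253) without replicate 1 of knockout day 0, and 0.40 ± 0.37 (adjusted p = 0.407) in wild type. Col25a1, known from amyloid plaques in human brain, gave -0.22 ± 0.26 (adjusted p = 0.506) and 0.31 ± 0.31 (adjusted p = 0.45). Of the unclassified chains, Col28a1 rose by 1.18 ± 0.25 (adjusted p = 0.00154) in knockout and gave 0.68 ± 0.30 (adjusted p = 0.0795) in wild type, which was called without replicate 3 of knockout day 5, at 0.68 (adjusted p = 0.02). Col26a1 gave 0.40 ± 0.22 (adjusted p = 0.143) and 0.01 ± 0.26 (adjusted p = 0.978), with the knockout value called without replicate 2 of knockout day 5, at 0.67 (adjusted p = 0.0121), and with library size alone, at 0.82 (adjusted p = 0.00663). With the Y-linked or Xist pattern as a covariate the knockout value was 0.01 (adjusted p = 0.974).

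**Figure D4:**
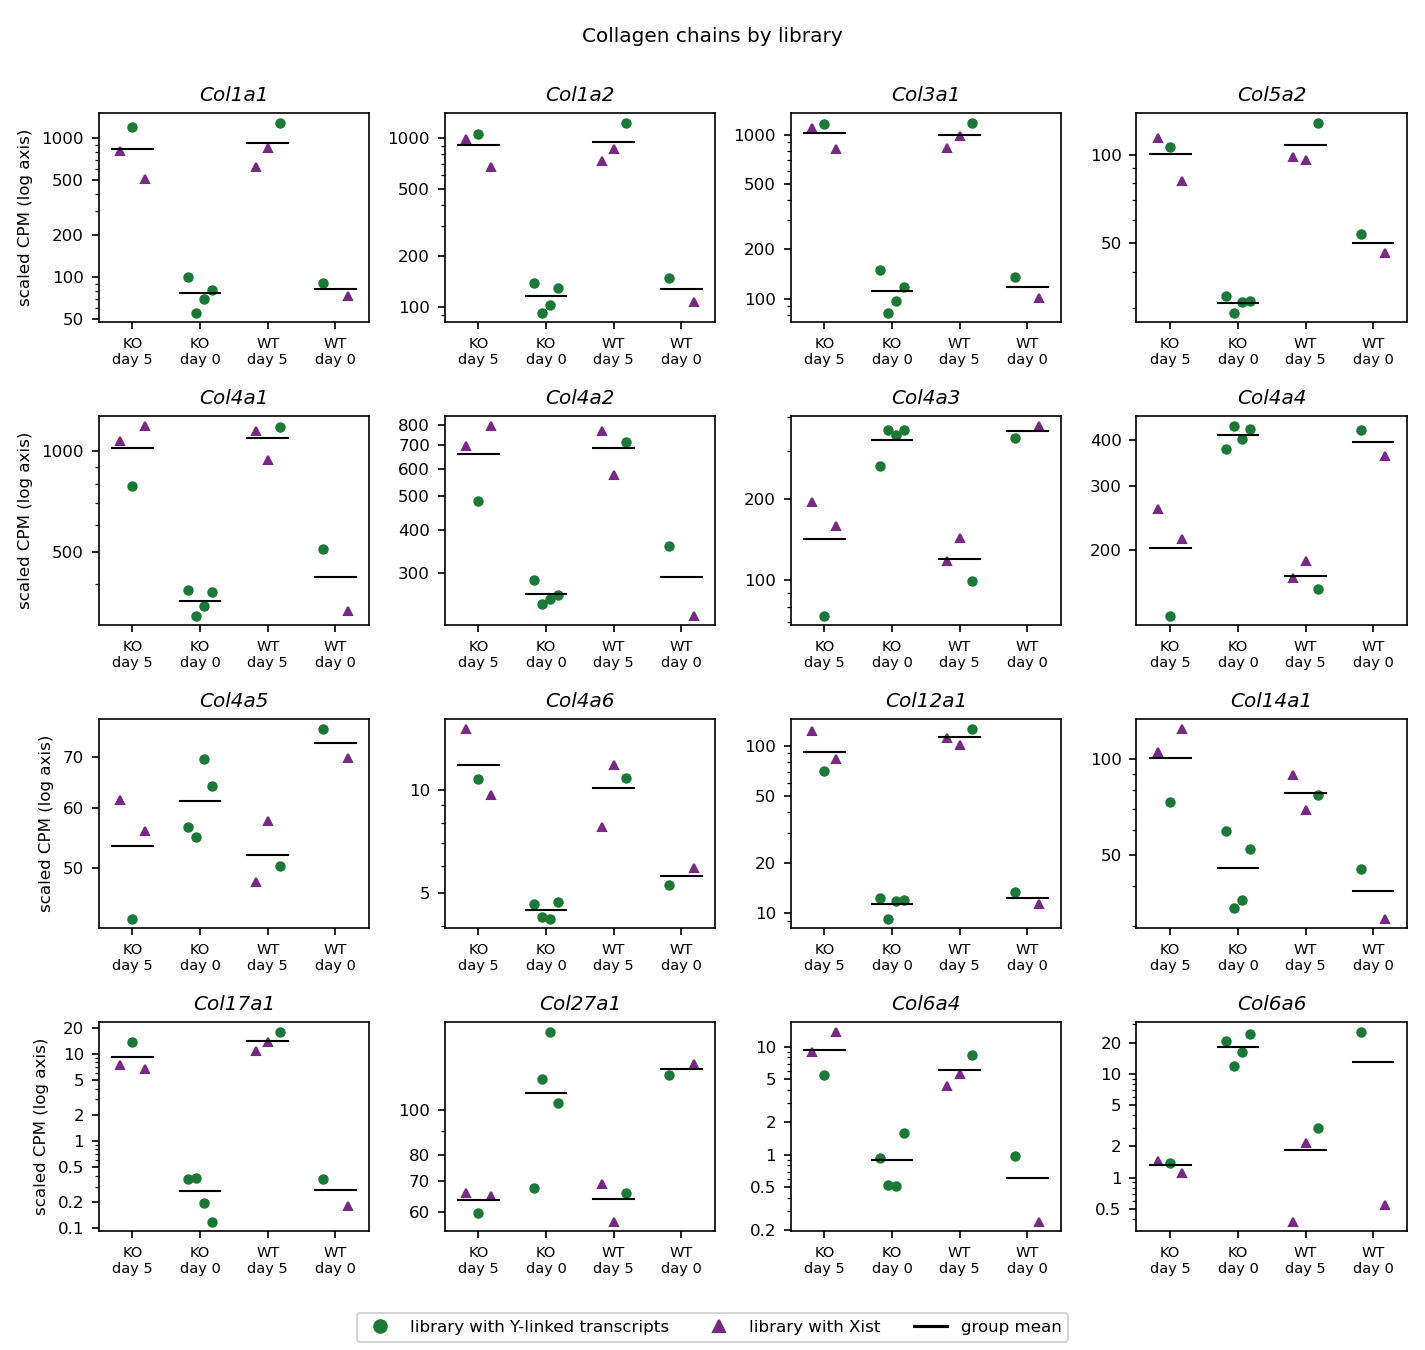
Scaled CPM on a log axis of 16 collagen chains in each library, by group (KO, Sprr2f knockout, WT, wild type), with the group mean as a line and the marker showing Y-linked or Xist transcripts. Col1a1, Col1a2, Col3a1, Col5a2, Col4a1, Col4a2, Col12a1 and Col17a1 are higher on day 5, and Col4a3, Col4a4 and the fibrillar chain Col27a1 are lower. Col6a6 is low in the Xist library of wild type day 0.

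Knockout and wild type kidneys were compared on each day. On day 5, 0 of the 42 collagen chains were called, where 0.0% of all 18093 genes were. At an unadjusted p under 0.05 there were 4 chains and 1025 genes, and on the recovered reads edgeR called 0 chains and DESeq2 0. Log2 differences ranged between -0.76 and 0.54 with a median of -0.02, and the median of all genes was 0.0047. The 4 chains were named after their values were seen: Col10a1 (-0.76 ± 0.30, adjusted p = 0.854), Col17a1 (-0.62 ± 0.28, adjusted p = 0.868), Col11a1 (-0.57 ± 0.25, adjusted p = 0.867) and Col7a1 (-0.56 ± 0.21, adjusted p = 0.845). Col7a1 was the chain with every knockout library below every wild type library, at 19.8, 15.9 and 17.1 scaled CPM in knockout and 22.5, 23 and 34.4 in wild type, and Col23a1 the chain with every knockout library above, where 4.21% and 5.72% of all genes were so placed. The urothelium markers summed to 34.6 to 104 scaled CPM in knockout and 48.2 to 201 in wild type on day 5, with overlap, and their part in the difference was not tested. For the main chains the differences were small against their error, at -0.15 ± 0.32 (adjusted p = 0.999) for Col1a1, 0.03 ± 0.21 (adjusted p = 0.999) for Col3a1, -0.12 ± 0.18 (adjusted p = 0.999) for Col4a1 and 0.15 ± 0.27 (adjusted p = 0.999) for Col4a3. With 3 libraries a group, this does not show that the genotypes had equal levels.

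**Figure D5:**
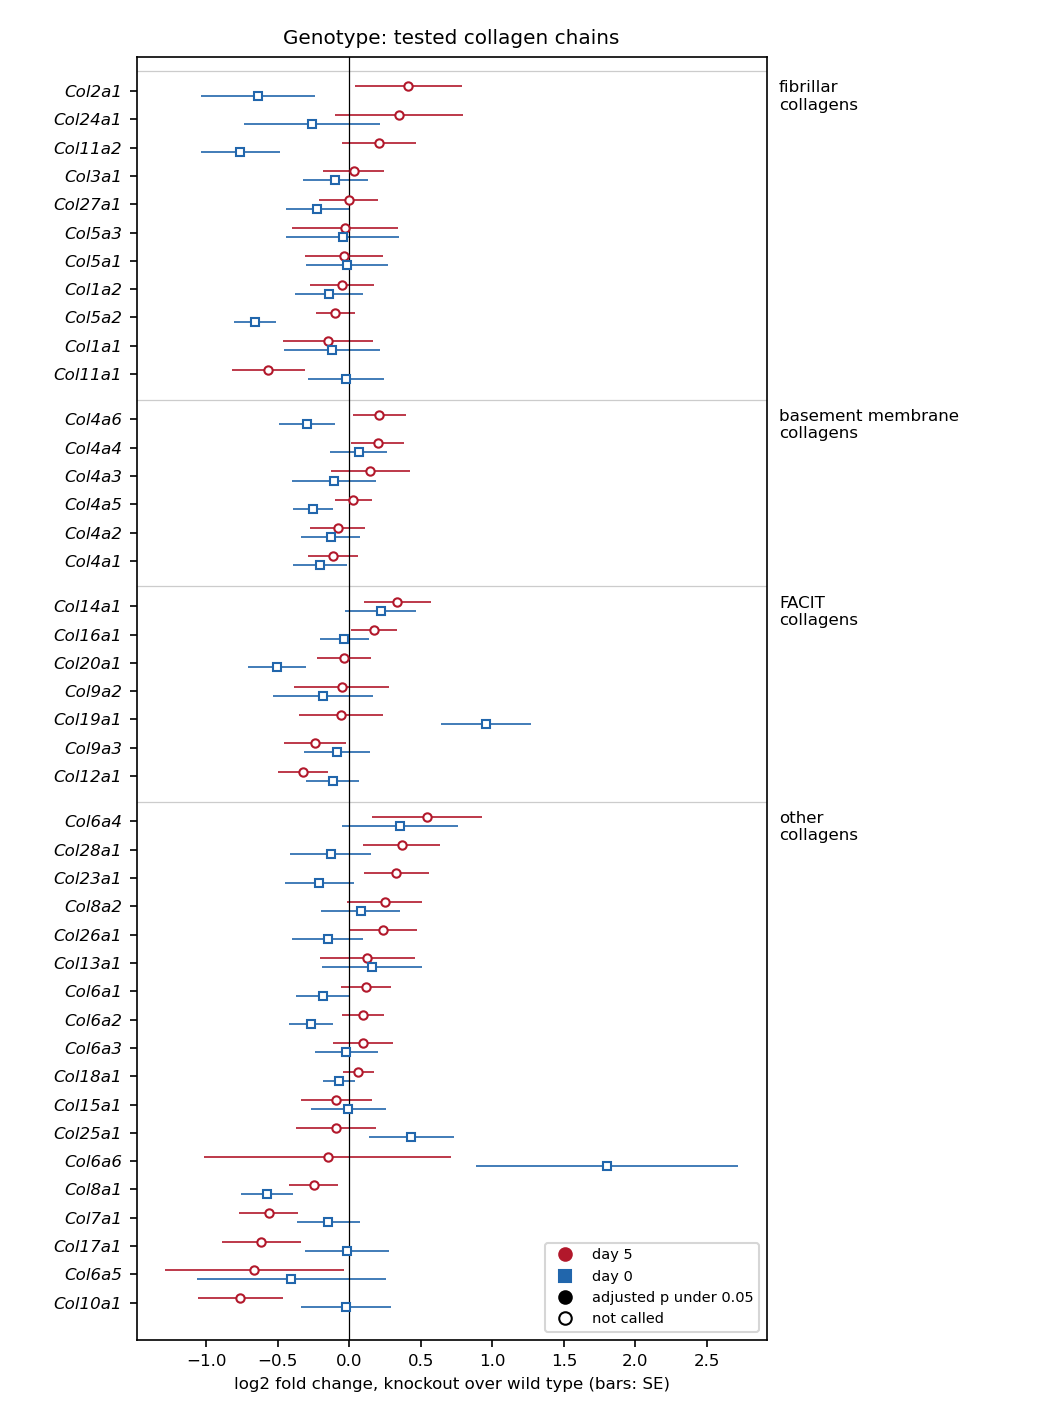
Log2 fold change, knockout over wild type, of the 42 tested collagen chains by class, on day 5 (circles) and day 0 (squares), with SE bars from limma. Open symbols mark an adjusted p of 0.05 or more, and all 42 chains have open symbols on both days.

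On day 0, 0 of the 42 chains were called either, where 0.0166% of all genes (3 genes, all lower) were. An unadjusted p under 0.05 was reached by 5 chains and 2709 genes, and edgeR called 0 chains and DESeq2 1. DESeq2 also called many more of all genes than limma (226 of 18093 higher alone, with its total in the last section), so its 1 chain is not set against the 0.0166%. That 1 of 42 chains is near the share of all genes that DESeq2 called, so it does not set the collagens apart. Every knockout library lay below every wild type library for 8 chains and above for 1 (Col19a1), where 12.4% and 12.9% of all genes were so placed. The chain called by DESeq2 was Col5a2, with 33.1, 29, 31.6 and 31.7 scaled CPM in the 4 knockout libraries and 53.6 and 46.1 in the 2 of wild type. Its log2 difference was -0.66 ± 0.14 (adjusted p = 0.0973), -0.65 (adjusted p = 0.0147) with DESeq2 and -0.79 (adjusted p = 0.0343) with the Y-linked or Xist pattern as a covariate. Over the alternatives its adjusted p ranged between 0.0147 and 0.531. All 4 knockout day 0 libraries and 1 of 2 wild type ones carried Y-linked transcripts, so genotype and pattern are partly confounded on day 0. For Col1a1 the difference was -0.12 ± 0.33 (adjusted p = 0.904), and -0.48 (adjusted p = 0.441) with the pattern as a covariate. Col6a6 differed by 1.80 ± 0.91 (adjusted p = 0.372), and without wild type day 0 replicate 1, which leaves the Xist library alone in that group, by 4.14 (adjusted p = 0.00361). Without replicate 2 the direction turned, at -0.51 (adjusted p = 0.952), and with the pattern as a covariate the difference was 0.94 (adjusted p = 0.643). In both leave-outs the lone sample is assumed to vary like the other groups. For the interaction of genotype and obstruction, 0 of the 42 chains were called with limma, where 0.00553% of all genes (1 gene) were. An unadjusted p under 0.05 was reached by 3 chains and 1374 genes, and edgeR and DESeq2 called 0 chains. The widest differences were -1.95 ± 1.26 (adjusted p = 0.73) for Col6a6, 1.05 ± 0.55 (adjusted p = 0.683) for Col2a1 and -1.01 ± 0.43 (adjusted p = 0.648) for Col19a1. For Col6a6 the interaction was called without replicate 1 of wild type day 0, at -4.30 (adjusted p = 0.0225), and without replicate 2 it was 0.35 (adjusted p = 1), with the direction turned. With the pattern as a covariate it was -1.09 (adjusted p = 0.901).

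The enzymes and partners that turn collagen chains into matrix were followed in 6 lists. Of 19 genes for modification and folding, 10 were higher, 4 lower and 5 not called in knockout, and 12, 5 and 2 in wild type, with median log2 changes of 0.58 and 0.56. Among all tested genes, 29.4% were called higher and 25.4% lower in knockout and 24.5% and 22.6% in wild type, and the 4 and 5 of 19 called lower are near these shares. Serpinh1, the collagen chaperone HSP47, averaged 487 ± 47.0 scaled CPM on day 5 and 179.9 ± 8.07 on day 0 in knockout and rose by 1.43 ± 0.09 (adjusted p = 9.85e-08) log2 units there and 1.46 ± 0.11 (adjusted p = 5.15e-07) in wild type. Fkbp10, a prolyl isomerase, rose by 2.22 ± 0.16 (adjusted p = 2.38e-07) and 2.21 ± 0.19 (adjusted p = 1.64e-06). The lysyl hydroxylase Plod3 rose by 0.94 ± 0.07 (adjusted p = 2.08e-07) and 0.86 ± 0.08 (adjusted p = 2.63e-06). The 4 called lower in both genotypes, named after their values were seen, were P4hb (-0.58 and -0.46), Ppib (-0.23 and -0.33), Mia3 (-0.31 and -0.28) and Colgalt2 (-1.22 and -1.48). With library size alone P4hb was no longer called, at -0.13 (adjusted p = 0.18) in knockout and -0.04 (adjusted p = 0.777) in wild type. Ppib was then called higher in knockout, at 0.22 (adjusted p = 0.0497), and stood at 0.09 in wild type. Mia3 was also above 0 (0.14 and 0.14). The calls of P4hb and the direction of Ppib and Mia3 therefore depend on the scaling. P3h2, also named after its values were seen, gave -0.29 in knockout and was called lower in wild type (-1.21). P4hb, Ppib and Mia3 serve secretion of many proteins besides collagen.

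Propeptide cleavage had 7 tested genes of 8, of which 5 were higher in knockout and 4 in wild type and 0 lower. Adamts2, which removes the amino-terminal propeptide, rose by 2.50 ± 0.16 (adjusted p = 1.21e-07) and 2.54 ± 0.19 (adjusted p = 6.57e-07). Bmp1, which removes the carboxy-terminal propeptide, rose by 2.42 ± 0.15 (adjusted p = 7.95e-08) and 2.02 ± 0.18 (adjusted p = 1.65e-06). Its enhancer Pcolce rose by 0.52 ± 0.10 (adjusted p = 0.000787) and 0.43 ± 0.12 (adjusted p = 0.0111). All 7 cross-linking genes were higher in knockout and 5 of 7 in wild type. The lysyl oxidase Lox averaged 91.5 ± 24.7 scaled CPM on day 5 and 9.71 ± 3.06 on day 0 in knockout and 98 ± 16 and 8.86 ± 2.19 in wild type, and rose by 3.18 ± 0.24 (adjusted p = 3.06e-07) and 3.40 ± 0.28 (adjusted p = 1.22e-06). Loxl2, which acts on type IV collagen, rose by 1.99 ± 0.15 (adjusted p = 2.58e-07) and 2.13 ± 0.17 (adjusted p = 1.03e-06). Loxl1 rose by 1.88 ± 0.17 (adjusted p = 1.14e-06) and 2.21 ± 0.20 (adjusted p = 2.13e-06). Of 11 fibril assembly partners, 8 were higher and 0 lower in knockout and 8 and 1 in wild type, the last being Omd, named after its values were seen (-0.69 in knockout and -1.10 in wild type). Fibronectin (Fn1) rose by 3.14 ± 0.16 (adjusted p = 3.02e-08) and 2.87 ± 0.19 (adjusted p = 2.55e-07). The matrix glycoprotein Sparc rose by 1.83 ± 0.15 (adjusted p = 8.3e-07) and 1.83 ± 0.19 (adjusted p = 5.53e-06). Biglycan (Bgn) rose by 1.85 ± 0.21 (adjusted p = 1.05e-05) and 2.04 ± 0.25 (adjusted p = 2.85e-05).

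The 9 tested of 10 collagen receptors were all called higher in both genotypes, with median log2 changes of 0.90 and 0.83. The leukocyte inhibitory receptor Lair1 rose by 1.62 ± 0.19 (adjusted p = 1.65e-05) in knockout and 2.58 ± 0.23 (adjusted p = 2.26e-06) in wild type. The fibrillar collagen receptor kinase Ddr2 rose by 1.59 ± 0.20 (adjusted p = 2.24e-05) and 1.75 ± 0.24 (adjusted p = 5.91e-05). The integrin β1 gene Itgb1 rose by 0.60 ± 0.08 (adjusted p = 2.81e-05) and 0.65 ± 0.09 (adjusted p = 8.31e-05). Collagen breakdown and uptake had 7 genes higher and 2 lower in knockout and 7 and 1 in wild type, of 9. The membrane collagenase Mmp14 averaged 133 ± 7.16 scaled CPM on day 5 and 18.6 ± 2.63 on day 0 in knockout and 170.3 ± 26.7 and 23.6 ± 1.26 in wild type, and rose by 2.81 ± 0.12 (adjusted p = 1.74e-08) and 2.81 ± 0.14 (adjusted p = 8.33e-08). The uptake receptor Mrc2 rose by 1.97 ± 0.20 (adjusted p = 3.72e-06) and 2.24 ± 0.24 (adjusted p = 8.04e-06). Prolidase (Pepd), which splits the last proline dipeptides of collagen, fell, with changes of -1.65 ± 0.12 (adjusted p = 2.05e-07) and -1.40 ± 0.14 (adjusted p = 4.76e-06). The other gene called lower in knockout, named after its values were seen, was the collagenase Mmp13, at -1.28 there and 0.29 in wild type. None of the genes in the 6 lists was called for genotype on day 5, on day 0 or for the interaction.

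Marker lists show how the tissue around the collagens differed between days. Of all tested genes, 29.4% were called higher and 25.4% lower in knockout, and 24.5% and 22.6% in wild type. The libraries carried 7 proximal tubule markers, none at 0, which summed to 2014 to 3896 scaled CPM on day 5 and 10802 to 12071 on day 0 in knockout and 1712 to 2495 and 10011 to 10926 in wild type, with 6 and 7 of the 7 lower. Fibroblast and mural cell markers summed to 376 to 584 on day 5 and 154 to 193 on day 0 in knockout and 507 to 665 and 174 to 216 in wild type, with 6 and 7 of 9 higher and 0 lower. Leukocyte markers summed to 417 to 501 and 123 to 155 in knockout and 372 to 524 and 122 to 134 in wild type, with 6 and 7 of 8 higher. Endothelial markers, 1 of 8 lower in each genotype and 0 higher, summed to 360.4 to 480.1 and 375 to 598 in knockout and 377 to 419 and 404 to 531 in wild type. Adipocyte markers, 0 of 3 tested called, summed to 0.418 to 25.5 and 4.71 to 19.8 in knockout and 15.9 to 36.5 and 0.0605 to 29.8 in wild type. Skeletal muscle markers summed to at most 3.33 scaled CPM in any library, and 2 of the 4 were at 0 in each wild type group. The part of these cell types in the collagen changes was not tested.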

How the data were processed

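The authors deposited a table of CPM values (reads in each gene per library total, scaled to a common total) for 55471 gene identifiers in 12 left kidney libraries. The submitters' processing notes name STAR, SAMtools, HTSeq and GRCm38.p6, with versions and strand setting not given in the sources used here. The values were checked to be whole multiples of 1 read: 100.0% of 665652 values lay within 0.001 of a whole read, and library totals followed from that.

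CPM values were divided by TMM factors, filtered with filterByExpr (minimum count 10, minimum total 15) and fitted over all 4 groups with limma 3.58.1 in R 4.3.3 on log2(scaled CPM + 0.5), with Benjamini-Hochberg adjustment over 18093 genes holding 99.91% of reads. A gene was called at an adjusted p under 0.05. The fit was tested on simulated data. edgeR 4.0.16 (quasi-likelihood) and DESeq2 1.42.0 were run on the recovered reads as alternatives, and the edgeR calls were 5350 up and 4482 down with obstruction in knockout, 4330 and 4130 in wild type, 0 and 0 for genotype on day 5, 0 and 3 on day 0, and 1 and 0 for the interaction. Other values were computed in Python 3.11.15. Intervals have a level of 95% and cover counting error only. Gene positions come from GENCODE M21, which held 55230 of the identifiers, and promoters from RefSeq on GRCm38.p6.

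Samples were grouped by the genotype and time in their labels. Every collagen chain is accounted for; from each pathway list the up to 3 genes with the smallest adjusted p for obstruction in wild type were named, and any other is said to be named after its values were seen. The members and lists were chosen with earlier results of these data known. Other normalizations, filters, pseudocounts and left-out libraries were tried.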

Additional observations from a re-analysis of the deposited data

Results flagged for a closer look

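Among 64 sets of 4 knockout day 0 libraries examined, 4 held a library far from the others, and chance alone marks about 1 in 20 such sets. For Col4a3 the lowest library, replicate 1, was at 263.51 scaled CPM and the next at 344.36, a gap of 0.861 of the whole range. Col9a3 had its lowest library at 0.0759 scaled CPM and the next at 0.433, a gap of 0.891. In Col12a1 the lowest library was at 9.26 scaled CPM and the next at 11.9, a gap of 0.856. For Col22a1 the highest library held 1 read (0.0759 scaled CPM) and the other 3 held 0, a gap of 1.0.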

How the results depend on the processing

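No paired analysis was possible because the labels give no replicate numbers, and the numbers used here only name libraries. With 2 wild type day 0 libraries, comparisons that use them are the least certain, and where 1 is left out the other is assumed to vary like the other groups. Leaving out 1 library at a time gave 26 to 28 collagen chains higher and 5 to 6 lower in knockout, and 22 to 25 and 4 to 6 in wild type. No collagen change turned its direction while called. With library size alone 2 chains were lower in wild type. For genotype on day 0, DESeq2 and the Y-linked or Xist covariate each called 1 chain lower, and leaving out a library called 0 to 1 higher. For the interaction, leaving out a library called 0 to 1 chains lower. Over all genes, genotype on day 5 (0 called) gave 40 with DESeq2, 2 with a pseudocount of 1, 3 with the covariate and 0 to 23 with a library left out. Genotype on day 0 (3 called) gave 373 with DESeq2, 8 with a pseudocount of 0.1, 6 with RLE normalization, 15 with library size alone, 9 with no filter, 6 with a filter of 1 CPM in 2 libraries, 10 with only the groups compared, 19 with the covariate and 1 to 638 with a library left out. The interaction (1 called) gave 37 with DESeq2, 0 with library size alone, 0 with no filter, 3 with the covariate and 0 to 107 with a library left out. The cause of these differences was not tested. Settings restricted to Y-linked or Xist libraries were chosen after seeing the data.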
